A study of Mus musculus with 3 samples.

Results

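The SR and hnRNP genes encode the main families of RNA-binding proteins that steer the choice of splice sites. They were taken from the deposited count table by symbol, as every row named Srsf followed by a number or beginning with Hnrnp, without rows holding "-ps", the mark of a pseudogene symbol. This gave 31 genes of the 44788 listed, 11 SR and 20 hnRNP genes. The samples were 3 RNA-seq libraries of splenic T lymphocytes from female BALB/c mice aged 6 to 8 weeks, which had been cultured in medium with 2% serum and LZ-8 for 15 h. LZ-8 is an immunomodulatory protein of a medicinal fungus. The treatment was the same in all 3 libraries and no untreated cells were analysed here, so the levels describe treated cells and not an effect of LZ-8. The cells had been isolated with beads against CD90.2, the Thy1 protein of T cells. Whether the replicates are separate mice, cultures or only separate libraries is not stated. The p-values therefore concern these libraries alone, and differences between them could be technical.

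SR proteins carry RNA recognition motifs and a tail rich in arginine and serine, bind mostly to exons, and as a rule promote the use of nearby splice sites. The hnRNP proteins coat nascent transcripts and often act in the opposite sense, by silencing exons. In T cells such proteins set the isoforms of surface receptors, the textbook case being the shortening of CD45 (Ptprc) by the Hnrnpll protein after activation. Many genes of both families limit their own output through transcripts that carry an early stop codon and are degraded. The counts below are per gene and do not tell isoforms apart.

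The libraries held 12669690 to 19041670 counts. The 12 T cell markers summed to 4255 to 4415 CPM (counts per 1000000 counts). The 38 markers of B cells, myeloid, erythroid, natural killer and stromal cells summed to 26.1 to 29.5 CPM (the macrophage marker Adgre1 was not analysed here). Most of this came from the 8 B cell markers, at 19.5 ± 1.76 CPM (SD, n = 3), of which 7 lay at or above 1 CPM. Of the 38 markers 12 had no read in any library, none of them a B cell marker. In bulk RNA, fewer cells of a type and less RNA per cell cannot be told apart.

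Almost the whole of both families was expressed. The 31 genes took 0.871 ± 0.00981% of all counts (SD, n = 3), and 25 of them lay at or above 100 CPM. The SR genes summed to 2316, 2272 and 2279 CPM in replicates 1, 2 and 3, and the hnRNP genes to 6467, 6483 and 6322 CPM. To compare genes with each other, CPM was divided by the length of the gene's annotated exons in kilobases. On this scale the median SR gene stood at 37.0 CPM per kilobase and the median hnRNP gene at 49.9, against 8.26 for 12795 genes of at least 1 CPM that had a length. Of the 11 SR genes 10 lay above that median, as did 17 of the 20 hnRNP genes. The top 10% of genes began at 50.3 CPM per kilobase, and 5 SR genes and 10 hnRNP genes reached it. These are counts and not a test of the families.

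Among the SR genes Srsf2, whose protein binds exonic enhancers, had the highest level per kilobase. It stood at 355, 336 and 341 CPM in replicates 1, 2 and 3, or 116 ± 3.44 CPM per kilobase (SD, n = 3), and its gene lies at chr11:116849901-116853094 (GRCm38, exons and introns). All 3 of its values per kilobase lay above those of every other SR gene. Srsf7, a shuttling SR protein that also serves as an adaptor in mRNA export, followed at 69.9 ± 3.95 CPM per kilobase, and Srsf6 at 69.9 ± 0.917. The values of Srsf7 and Srsf6 overlapped between libraries, so their order is not resolved. Srsf1, the founding member of the family, was at 353, 361 and 335 CPM or 61.2 ± 2.30 CPM per kilobase.

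Lower in the family stood Srsf5 at 55.7 ± 1.86 CPM per kilobase, then Srsf11, an SR-like protein of the spliceosome, at 37.0 ± 0.651. Srsf9, at 29.5 ± 2.04, and Srsf3, the export adaptor related to Srsf7, at 27.0 ± 0.368, overlapped each other. Srsf4 had 24.5, 23.8 and 26.8 CPM per kilobase and Srsf10, which turns into a general splicing repressor when it is dephosphorylated, 17.7 ± 0.379. Of the 10 neighbouring pairs in this order 8 did not overlap in their 3 values. The order depends on the length used. With the longest annotated transcript in place of all exons, Srsf11 moved from the 6th to the 3rd place, while Srsf2 stayed 1st at 181. On that scale Srsf11 stood at 101 ± 1.77 and Srsf7 at 103 ± 5.84, so the order of these genes is not resolved.

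Srsf12 was the exception of the SR family. It had 17, 17 and 14 reads, or 0.893, 1.34 and 0.951 CPM, where 3 counts, the limit that a count of 0 allows, would be 0.158, 0.237 and 0.204 CPM. All 3 libraries were therefore above that limit. Its level of 0.337 ± 0.0775 CPM per kilobase was below that of every other member in all 3 libraries, and Srsf10, its closest relative here, had 51.8-fold more reads per kilobase (log2 ratio 5.69 ± 0.29), or 90.2-fold more per kilobase of the longest transcript.

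**Figure D1:**
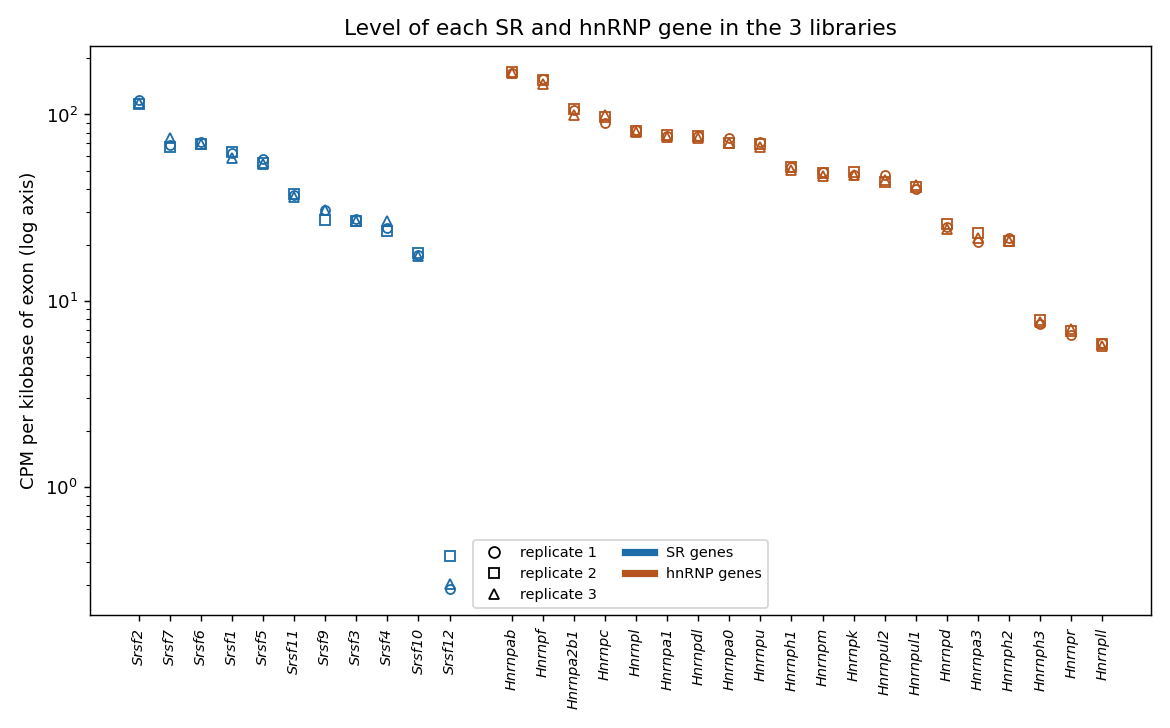
CPM per kilobase of exon (log axis) of the 11 SR genes (blue) and 20 hnRNP genes (orange), each symbol being 1 library. Genes are ordered by mean within each family, and Srsf12 alone lies under 1 CPM per kilobase while Srsf2 and Hnrnpab lead their families.

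The hnRNP genes spanned 28.6-fold, from 5.87 to 168 CPM per kilobase. Hnrnpab, whose protein binds single-stranded nucleic acid and occurs in nucleus and cytoplasm, led with 465, 471 and 464 CPM, or 168 ± 1.30 CPM per kilobase (SD, n = 3; chr11:51600100-51606847). Hnrnpf, a binder of runs of G, followed at 151 ± 5.13 CPM per kilobase, and its values did not overlap those of Hnrnpab. The classical pair of exon silencers and packaging proteins, Hnrnpa2b1 and Hnrnpc, came next at 104 ± 4.20 and 95.8 ± 4.97 CPM per kilobase, and these overlapped. Hnrnpl, which binds CA repeats and silences exons of Ptprc, was at 492, 486 and 481 CPM, or 81.7 ± 0.956 CPM per kilobase. This order, too, depends on the length used. Per kilobase of the longest transcript Hnrnpab stood at 197 ± 1.53 CPM, Hnrnpf at 191 ± 6.51 and Hnrnpa2b1 at 188 ± 7.59. On that scale Hnrnpa1 moved from the 6th to the 11th place and Hnrnpk from the 12th to the 8th. There Hnrnpk stood at 104 ± 2.47 and Hnrnpu at 105 ± 3.07, so the order of these genes is not resolved.

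A middle group held Hnrnpa1 (76.6 ± 1.22 CPM per kilobase), Hnrnpdl (76.3 ± 1.34), Hnrnpa0 (71.9 ± 2.71) and Hnrnpu (69.1 ± 2.02), in which each gene overlapped the next lower one. Hnrnpu encodes the scaffold attachment protein that ties RNA to chromatin. Without regard to length it had the most reads of all members under their own symbols, at 823, 804 and 777 CPM. Hnrnph1 (51.6 ± 1.03), Hnrnpm (48.3 ± 1.13), the poly-C binder Hnrnpk (47.9 ± 1.13), Hnrnpul2 (45.04 ± 2.04) and Hnrnpul1 (40.9 ± 0.819) came next. Here Hnrnpm overlapped Hnrnpk, and Hnrnpk overlapped Hnrnpul2, so their order is not resolved. Of the 19 neighbouring pairs in the whole hnRNP order 12 did not overlap in their 3 values.

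Hnrnpd, known for its role in the decay of AU-rich mRNA, had 24.9, 25.8 and 24.4 CPM per kilobase, Hnrnpa3 21.9 ± 1.23 and Hnrnph2 21.2 ± 0.371. The values of Hnrnpa3 and Hnrnph2 overlapped. Only Hnrnph3, Hnrnpr and Hnrnpll stayed under 10 CPM per kilobase. Hnrnph3 was at 23.7, 24.8 and 24.3 CPM, Hnrnpr at 146, 154 and 157 CPM, and Hnrnpll at 69.7, 68.6 and 67.2 CPM. Per kilobase Hnrnph3 was at 7.71 ± 0.166, Hnrnpr at 6.58, 6.93 and 7.06, and Hnrnpll at 5.87 ± 0.107. The exons of Hnrnpr cover 22199 bases, most of them in a transcript of 21452 bases, and those of Hnrnpll cover 11677 bases against 4651 in its longest transcript. With the longest transcript as the length Hnrnpll rose to 14.7 CPM per kilobase and from the 20th to the 18th place.

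The families were then compared within each library. The median SR gene lay below the median hnRNP gene by 0.44, 0.42 and 0.42 log2 units in replicates 1, 2 and 3, on the scale of log2(CPM per kilobase + 1). The mean difference was -0.43 ± 0.01 (SD, n = 3), or 1.34-fold. The summed level per kilobase of the 11 SR genes was below that of the 20 hnRNP genes by a log2 ratio of -1.26 ± 0.03, or 2.39-fold, which also carries the unequal number of genes. Both differences were larger than the spread between libraries and had the same sign in 3 of 3 libraries. An exact two-sided sign-flip permutation test over the libraries gave p = 0.25 for each, the smallest that 3 libraries allow.

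The difference between the medians depends on a few genes. Without Srsf12, which did not reach 1 CPM in 2 libraries, it was -0.14 ± 0.01 log2 units. Among the 14 members with under 5% of their 31-base words in another gene it was -0.05, 0.04 and -0.04 in replicates 1, 2 and 3, with no common sign, and the ratio of sums was -0.61 ± 0.04. Of those 14 genes 6 were SR and 8 hnRNP.

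Reads from these genes may also be listed under other symbols, because genes of both families have copies in the genome, most of them pseudogenes. To measure this, the transcripts of each member were cut into overlapping words of 31 bases and searched for in all other annotated transcripts. A gene elsewhere in the genome with at least 30% of its own words in a member was counted as a copy of it, a rule chosen after the data were seen. It also had to hold at least 1% of the member's words, so short copies of long members could be missed. By this rule 56 copies were found, 49 of hnRNP genes and 7 of SR genes. Of the 56 copies 43 are rows of the count table, and those belong to 11 members, 8 hnRNP and 3 SR genes. The copies held 3206 ± 90.5 CPM, which is 26.9 ± 0.337% of all reads under members and copies together (SD, n = 3). The share was 29.6 ± 0.396% for hnRNP genes and 18.1 ± 0.270% for SR genes, and the libraries of the 2 families did not overlap. How the authors treated reads that map to several places is not given in the sources used here, so these reads cannot be assigned to gene or copy.

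Hnrnpa1, the best studied splicing silencer, showed this most plainly. Its own symbol had 4613, 3101 and 3491 reads, while its processed pseudogene Gm10052 had 13502, 8923 and 9242. In all 3 libraries the pseudogene was listed with more reads than the gene. All of the 31-base words of Gm10052 occur in Hnrnpa1. Adding the 7 copies in the table, 78.8 ± 0.734% of the reads stood under a copy. Hnrnpa1 would then be the highest hnRNP gene, at 362 ± 17.1 CPM per kilobase in place of 76.6. Without regard to length its copies alone held 899 ± 50.6 CPM, above the 801 ± 23.5 CPM of Hnrnpu.

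Across the pseudogenes of Hnrnpa1 the reads followed the likeness to the gene. Gm10052, with 100% of its words in Hnrnpa1, stood at 680 ± 45.5 CPM (SD, n = 3). Gm5643, with 71.3%, was at 53.5 ± 3.09 CPM, Gm8652, with 40.3%, at 22.4 ± 2.12 CPM, and Gm6187, with 11.7%, at a mean of 0.791 CPM. At the low end the order did not hold, as Gm13418, with 9.63%, was at a mean of 3.26 CPM. Over the 11 pseudogenes of Hnrnpa1 in the table, including those with under 30% of their words in common, Spearman's rho between likeness and mean CPM was 0.95 and Pearson's r with log2 CPM was 0.94. For Hnrnpa3 they were 0.96 and 0.94 over 29 genes, of which 20 are copies by the 30% rule. These are descriptions across genes that share a parent sequence and the same 3 libraries.

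**Figure D2:**
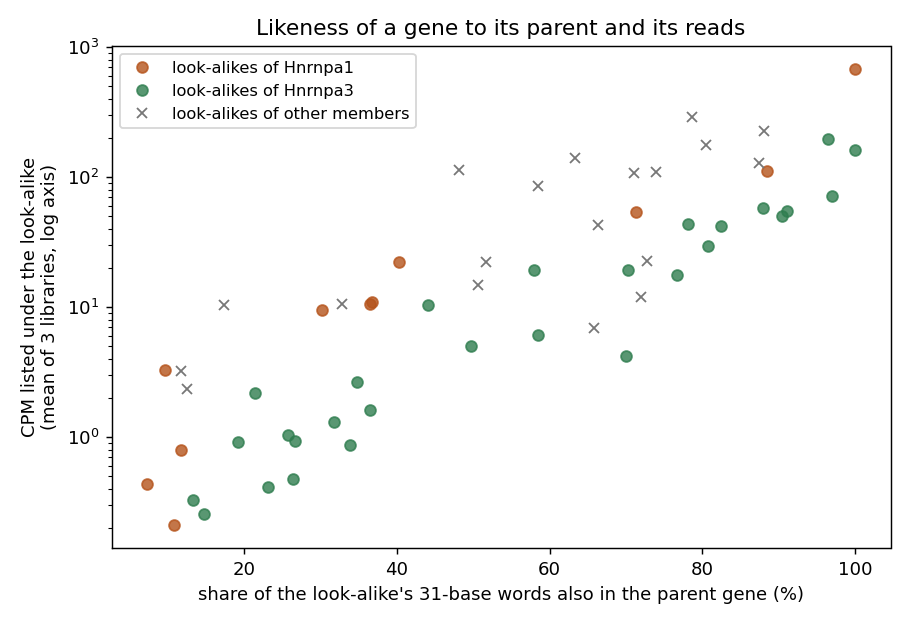
Mean CPM of each look-alike gene (log axis, 3 libraries) against the share of its 31-base words that also occur in the parent gene, for Hnrnpa1 (orange), Hnrnpa3 (green) and other members (crosses), including look-alikes under 30% and leaving out genes with no read. Those of Hnrnpa1 near 10% lie between 0.210 CPM (Gm8796) and 3.26 CPM (Gm13418), and the one at 100% lies at 680 CPM.

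Hnrnpa3, a close relative of Hnrnpa1, had the largest share under copies. It had 2130, 1584 and 1722 reads under its own symbol and 87.1 ± 0.739% of the total under 20 copies in the table (SD, n = 3). The leading copies were Gm11847 with 3621, 2568 and 2835 reads and Gm5641 with 3305, 2004 and 2232. Both exceeded Hnrnpa3 itself in all 3 libraries. With the copies added, the level of Hnrnpa3 moved from 21.9 to 169 CPM per kilobase and from the 16th to the 3rd place among hnRNP genes. To let a reader see how little separates gene and copy, 100 bases of coding sequence are shown here and for Srsf3 and Hnrnpk, each with the matching bases of a copy. They are from the GENCODE M21 transcripts (GRCm38), written 5′ to 3′, and capitals mark bases of the copy that differ from the gene. The stretch of Hnrnpa3 lies in its 4th exon at chr2:75661951-75662050 (plus strand). Gm5641 has the same bases, and Gm6153, at chr1:87544278-87544377 (minus strand) with 4 differences and 34.8% of its words in the gene, had 48, 37 and 38 reads.
Hnrnpa3: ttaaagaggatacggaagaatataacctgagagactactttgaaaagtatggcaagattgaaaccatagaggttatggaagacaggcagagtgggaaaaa
Gm6153: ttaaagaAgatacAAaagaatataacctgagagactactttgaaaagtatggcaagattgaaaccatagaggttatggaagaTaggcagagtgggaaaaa

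Among the SR genes Srsf3 was the one with more reads under copies than under its own symbol. It had 4129, 2680 and 3122 reads, its pseudogene Gm9761 had 4229, 3020 and 3290, and Gm12355, annotated as protein-coding, had 2594, 1786 and 2112. Gm9761 exceeded Srsf3 in 3 of 3 libraries. The copies together took 63.3 ± 0.953% of the reads (SD, n = 3), and with them Srsf3 would stand at 73.6 ± 1.03 CPM per kilobase in place of 27.0. The stretch shown is in the 2nd exon of Srsf3 at chr17:29036296-29036395 (plus strand). Gm9761 has the same 100 bases, and Gm12355, at chr11:98625396-98625495 (minus strand), differs at 1.
Srsf3: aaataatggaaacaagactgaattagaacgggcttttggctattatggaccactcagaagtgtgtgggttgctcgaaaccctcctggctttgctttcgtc
Gm12355: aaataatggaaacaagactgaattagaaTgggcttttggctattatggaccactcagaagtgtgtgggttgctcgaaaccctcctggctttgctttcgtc

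Hnrnpk and Hnrnpf completed the 5 genes with more reads under copies, which held in each of the 3 libraries. For Hnrnpk the share was 56.6 ± 0.342%, with Gm7964 at 5525, 3757 and 4267 reads beside 5834, 4034 and 4490 for the gene. Gm7964 stayed below Hnrnpk in each library, and the surplus came with the other copy, Gm4130, at 2155, 1429 and 1648 reads. A stretch of the 10th exon at chr13:58394582-58394681 (minus strand) differs at 2 bases in Gm7964 (chr7:83756654-83756753, plus strand).
Hnrnpk: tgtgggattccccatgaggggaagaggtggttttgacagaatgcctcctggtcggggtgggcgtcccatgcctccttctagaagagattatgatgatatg
Gm7964: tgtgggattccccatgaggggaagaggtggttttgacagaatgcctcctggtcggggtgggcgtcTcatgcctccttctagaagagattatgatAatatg

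For Hnrnpf the share was 50.7 ± 0.522%, spread over 5 copies in the table. Their sum was 484, 488 and 446 CPM in replicates 1, 2 and 3. A single copy moved far more for its level, as Gm7803 stood at 43.1 ± 20.2 CPM (SD, n = 3) and was highest in replicate 1. Its reads were 1263, 422 and 437, and part of that difference is depth, replicate 1 being the deepest library. Once copies were added, Hnrnpf stood 2nd among hnRNP genes at 306 ± 12.6 CPM per kilobase, and Hnrnpab 4th at 168. The remaining members with copies had smaller shares: 32.6 ± 0.416% for Srsf5, 19.3 ± 1.51% for Srsf10, 17.1 ± 1.25% for Hnrnpc, 12.7 ± 0.499% for Hnrnpr, 11.5 ± 1.09% for Hnrnph2 and 2.77 ± 0.0979% for Hnrnpdl. The other 20 members, among them Srsf1, Srsf2, Srsf6, Srsf7, Hnrnpab, Hnrnpa2b1, Hnrnpl and Hnrnpu, had no copy in the table by this rule. With all copies added, the log2 ratio of SR to hnRNP sums went from -1.26 to -1.69 ± 0.04, and the difference of medians from -0.43 to -0.20 ± 0.05.

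**Figure D3:**
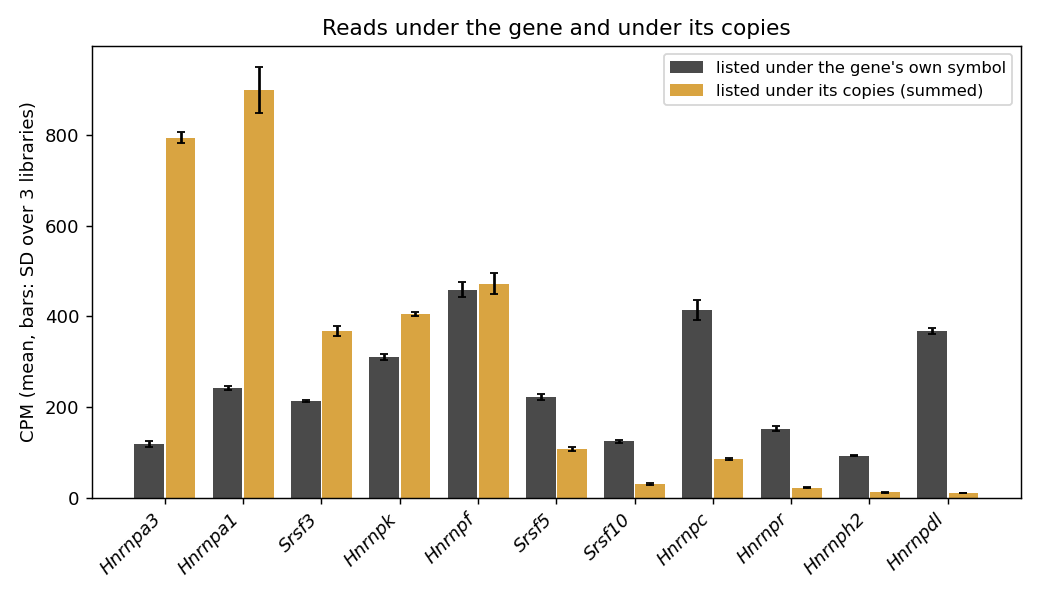
CPM under the gene's own symbol (dark) and summed over its copies (yellow) for the 11 members with copies in the table, as mean with SD over 3 libraries. The copies exceed the gene for Hnrnpa3, Hnrnpa1, Srsf3, Hnrnpk and, narrowly, Hnrnpf.

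Genes in the table that overlap members were listed with fewer reads than the member, except at Hnrnph3. Rufy2, on the strand opposite to Hnrnph3, had 576, 342 and 458 reads against 452, 314 and 358 for the member. Of the words of Srsf4 41.0% also occur in the antisense transcript Gm12992, but that gene had 28, 20 and 15 reads against 1659, 1074 and 1402 for Srsf4. Hnrnpab shares 28.1% of its words with other genes, chiefly with Phykpl on the opposite strand, which had 186, 122 and 146 reads against 8859, 5968 and 6834. The use of strand in counting is not given in the sources used here.

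The balance between related or opposing regulators was measured as the ratio of reads per kilobase for 16 fixed gene pairs. Each of the 16 ratios had the same sign in all 3 libraries, and each gave p = 0.25 in the exact sign-flip permutation test, raw and adjusted over the pairs, the smallest p possible. Srsf1 and Hnrnpa1 are the textbook antagonists in the choice of 5′ splice sites. Their log2 ratio was -0.31, -0.30 and -0.36 in replicates 1, 2 and 3, so Srsf1 was 1.25-fold lower per kilobase. By reads alone the sign turned, to 0.53 ± 0.03, and with copies added Hnrnpa1 lay further above Srsf1.

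Hnrnpl exceeded its paralogue Hnrnpll 13.9-fold per kilobase, with log2 ratios of 3.79, 3.80 and 3.81. Neither gene has a copy in the table by the rule used, and this was the tightest of the ratios with an SD of 0.01. Hnrnpc was 1.17-fold lower than U2af2, the splice site factor with which its protein competes for runs of U, at -0.23 ± 0.03. With copies of both genes added, found by the same rule, the ratio was -0.18 ± 0.03. Srsf2 exceeded Srsf1 1.90-fold per kilobase (0.92 ± 0.07). By reads alone the mean was -0.02 ± 0.07, within the spread, the exons covering 5710 bases in Srsf1 and 2958 in Srsf2. Srsf7 exceeded Srsf3 2.59-fold (Srsf3 to Srsf7 -1.37 ± 0.09), but with copies added the ratio was 0.08 ± 0.09 and within the spread between libraries.

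Among the hnRNP pairs, Hnrnpdl exceeded Hnrnpd 3.05-fold, Hnrnpf exceeded Hnrnph1 2.92-fold and Hnrnph1 exceeded Hnrnph2 2.43-fold. The log2 ratio of Hnrnpd to Hnrnpdl went from -1.61 to -2.31 per kilobase of the longest transcript, and that of Hnrnph1 to Hnrnpf from -1.55 to -2.57 with copies added. Hnrnpu was 1.69-fold above Hnrnpul1 and 1.12-fold above it with the longest transcript as the length. Hnrnpa2b1 was 1.36-fold above Hnrnpa1 (0.44 ± 0.04), which was 1.28 per longest transcript and reversed to -1.80 ± 0.02 with copies added. Hnrnpul1 and Hnrnpul2 were the closest pair, at -0.24, -0.08 and -0.10, and their sign turned to 0.58 ± 0.09 with the longest transcript as the length. Hnrnpa3 lay 3.51-fold below Hnrnpa1 and Hnrnpr 6.99-fold below Hnrnpk. With copies added the log2 ratio of the first pair went from -1.81 to -1.10 and that of the second from -2.81 to -3.82, and per longest transcript the second was -3.88. In the SR family Srsf6 exceeded Srsf4 2.80-fold and Srsf5 1.26-fold. The second of these reversed to 0.24 ± 0.04 (Srsf5 to Srsf6) with copies added.

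**Figure D4:**
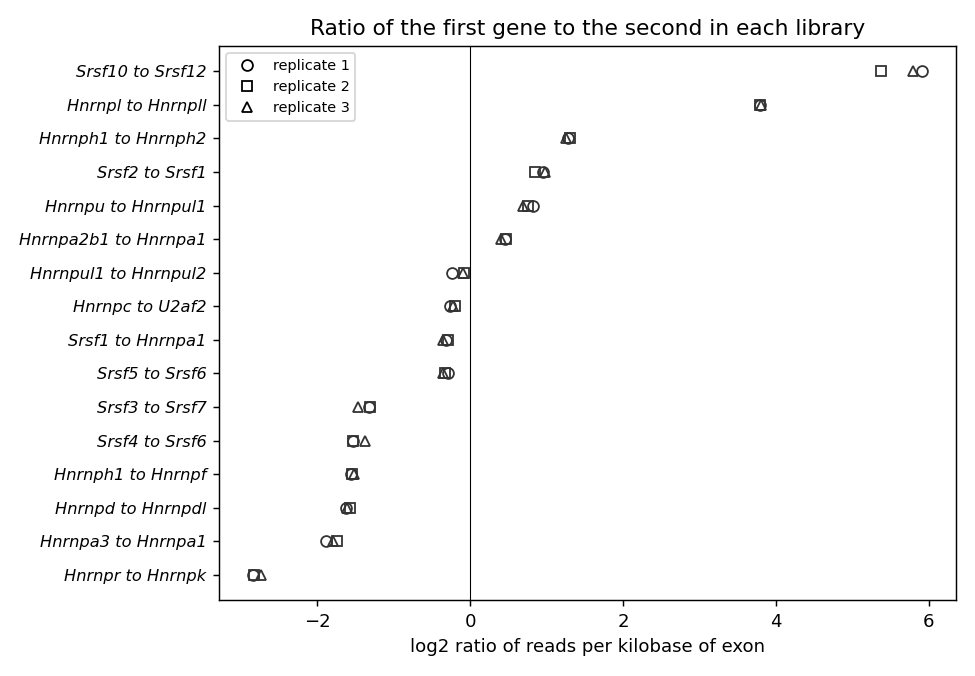
Log2 ratio of reads per kilobase of exon for the 16 gene pairs, each symbol being 1 library. All pairs keep their side of 0 in the 3 libraries, from Hnrnpr to Hnrnpk at about -2.8 to Srsf10 to Srsf12 between 5.37 and 5.91.

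The stability of the members between libraries was tested with edgeR's likelihood-ratio test at dispersion 0, which asks whether the counts differ by more than counting noise. It compares these libraries and not conditions. Of 30 members tested, 9 varied at an adjusted p under 0.05, 3 of 10 SR and 6 of 20 hnRNP genes. The background was 13.7% of all 13500 genes tested and 33.9% of the 2570 genes of at least 100 CPM, where counts are large enough to show small differences. The members' share was near that of the genes of at least 100 CPM, but the 2 sets are not matched in abundance. The median of those genes was 172 CPM against 301 CPM for all 31 members, of which 25 reached 100 CPM. At an unadjusted p under 0.05 the count was 15, and Srsf12 was not tested because it missed 1 CPM in 2 libraries. The median range between libraries was 0.08 log2 units for SR and 0.07 for hnRNP genes, against 0.17 for all genes tested and 0.09 for those of at least 100 CPM.

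The differences were small in size. Srsf7 stood at 244, 237 and 264 CPM in replicates 1, 2 and 3, highest in replicate 3, with a range of 1.12-fold (adjusted p = 0.000116, edgeR). Srsf4 followed the same order at 87.1, 84.8 and 95.3 CPM (adjusted p = 0.0370), while Srsf1 was lowest in replicate 3 (adjusted p = 0.0265). Hnrnpc was lowest in replicate 1, at 390, 421 and 431 CPM, with the smallest adjusted p of all members, 3.20e-08, at a range of 1.11-fold. Hnrnpa2b1 was lowest in replicate 3, at 696, 707 and 655 CPM (adjusted p = 4.37e-05).

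Hnrnpu and Hnrnpf were also lowest in replicate 3 and highest in replicate 1, with ranges of 1.05-fold and 1.06-fold (adjusted p = 0.00260 and 0.0127). Hnrnpul2, at 336, 307 and 317 CPM, was highest in replicate 1 (adjusted p = 0.00128). Hnrnpa3 was highest in replicate 2 at 112, 125 and 117 CPM (adjusted p = 0.0279). The widest range among the 9 was 1.13-fold, for Srsf4. Without a filter on low counts, a setting that also recomputes the TMM scaling and in which 7.28% of all genes varied, Hnrnpa3, Srsf1 and Srsf4 no longer passed (adjusted p = 0.0734, 0.0578 and 0.0516, edgeR), nor did Srsf4 with unscaled totals (adjusted p = 0.0547). The part of the copies in these differences was not tested, and Gm10052, the leading copy of Hnrnpa1, varied as well (adjusted p = 8.69e-17, edgeR). Of the 42 copies tested 9 varied, Gm10052 included, or 21.4%. The background was 13.7% of all genes tested and 33.9% of those of at least 100 CPM.

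**Figure D5:**
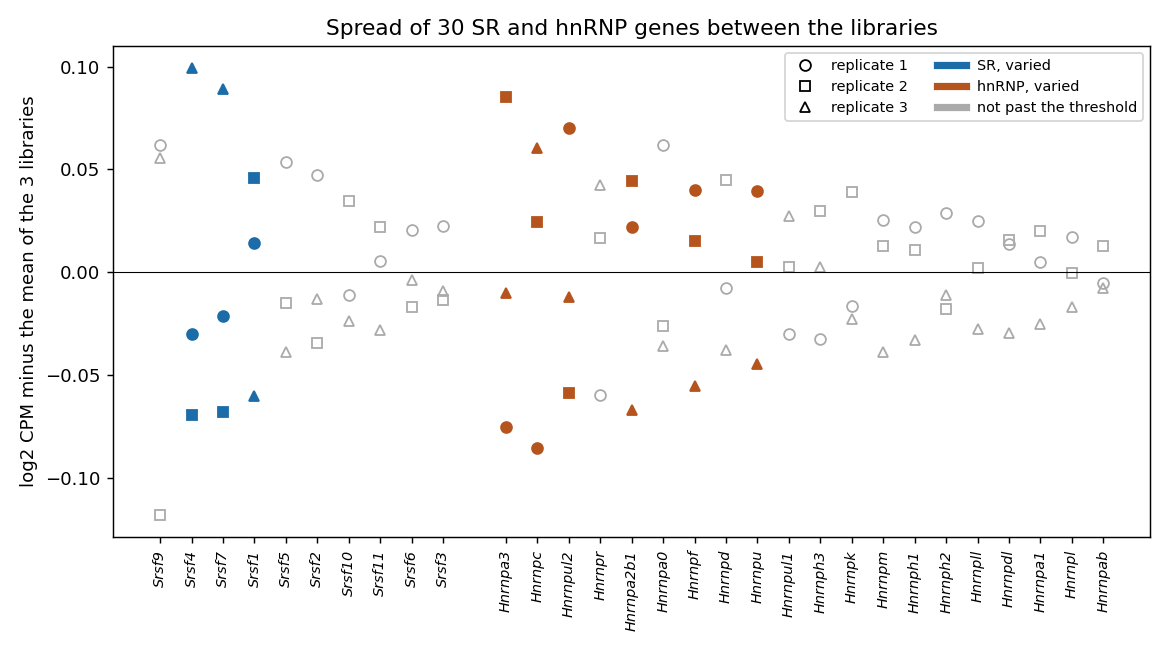
Log2 CPM of the 30 tested members minus the gene's mean over the 3 libraries, each symbol being 1 library. Filled symbols mark the 3 SR (blue) and 6 hnRNP genes (orange) that varied, and the widest range between libraries of any of the 30 is 1.13-fold.

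With replicate 1, 2 or 3 left out, 4, 5 and 3 members varied in place of 9. Between replicates 1 and 2 no SR gene and 3 hnRNP genes differed, between 1 and 3 it was 1 and 4, and between 2 and 3 it was 3 and 1. The share of all genes called in these pairs was 5.61%, 9.03% and 8.48%. No member differed in all 3 pairs. Srsf7 and Hnrnpa2b1 differed in both pairs that include replicate 3, and Hnrnpc in both pairs that include replicate 1.

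The partners of the families were taken from 7 lists of splicing genes. SR proteins are phosphorylated by the Srpk and Clk kinases, and 8 of the 9 listed kinases lay above 1 CPM. Srpk1 was at 255 ± 3.60 CPM, Prpf4b at 206 ± 3.18 and Clk1 at 130 ± 3.82 (SD, n = 3). None of the 8 kinases tested varied by edgeR's test, nor did any at an unadjusted p under 0.05. The lists were tested with this tool and TMM scaling alone, and the counts of varying genes in each list stand against the same background, 13.7% of all genes tested and 33.9% of those of at least 100 CPM. Of the 15 SR-related and exon junction genes, 13 of them at 100 CPM or more, 4 varied. They were Srrm2, at 2139 ± 37.4 CPM, and Son, at 1023 ± 42.4, the large proteins of nuclear speckles, together with Scaf1 and Luc7l3.

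Of the 17 genes of splice site recognition and the spliceosome core, 13 of them at 100 CPM or more, 7 varied. The list is small, and this is not read as a difference from the 33.9% of genes of at least 100 CPM. Among the 7 were U2af2 (462 ± 16.3 CPM), Sf3b1 (605 ± 19.4 CPM), the branch point factor of U2, and the helicase Snrnp200 (793 ± 34.2 CPM). Prpf8, at the centre of the spliceosome, had 1146 ± 17.4 CPM and did not pass. All 17 RNA-binding proteins listed as companions of hnRNPs lay above 100 CPM, with a median of 67.3 CPM per kilobase. The exon silencer Ptbp1 was at 865 ± 16.2 CPM, Ybx1 at 686 ± 37.9 and Sfpq at 559 ± 11.2. Of these 17 genes 7 varied, Ybx1 (647, 690 and 723 CPM) and Nono (313, 388 and 357 CPM) with the smallest p-values (adjusted p = 8.46e-16 and 8.95e-27, edgeR).

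Of 14 other splicing regulators, 2 varied, Mbnl1 (710 ± 39.6 CPM) and its relative Mbnl3 (35.2 ± 4.04 CPM). Of 6 arginine methyltransferases and importins, all above 100 CPM and too few to read against the 33.9%, 4 varied, including Prmt1, which methylates hnRNP proteins (305 ± 17.7 CPM), and Tnpo3, the import receptor of SR proteins (212 ± 10.9 CPM). Of the 16 neural and epithelial splicing factors 8 had no read in any library, and only Ptbp2 (24.1 ± 2.42 CPM) and Celf5 (1.76 ± 0.387 CPM) exceeded 1 CPM.

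Finally, the annotated transcripts of the members were counted, a feature the choice of genes did not use. GENCODE lists at least 1 transcript marked for nonsense-mediated decay for 9 of the 11 SR genes (81.8%) and 10 of the 20 hnRNP genes, against 30.5% of 10537 protein-coding genes of at least 1 CPM. The SR genes without one were Srsf10 and Srsf12. Hnrnpd had 4 such transcripts, Srsf11, Hnrnpk and Hnrnpu 3 each. Transcripts with a retained intron were listed for 72.7% of SR and 70.0% of hnRNP genes, nearer to the 61.7% of all. These are counts of the annotation, not of reads. The background was not matched to the members in level or in the number of annotated transcripts, which was 34 for Hnrnpk and 19 for Srsf11. The deposited counts do not show how much RNA these transcripts hold.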

How the data were processed

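The authors deposited read counts per gene symbol. All were integers and column totals differed, so these counts were taken as raw. Libraries were made with an Ion Proton kit per the labels' protocols. The submitters' processing notes name the build mm10. No aligner, counter, annotation, strand setting or rule for multiply mapped reads is given in the sources used here. The number of columns from other samples was 0. CPM used column totals. Exon lengths, positions and 31-base words came from GENCODE M21 (GRCm38, the assembly behind mm10), which matched 32131 of 44788 symbols and all 31 members.

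With 1 group there was no contrast for edgeR's quasi-likelihood test. Libraries were compared with edgeR 4.0.16 in R 4.3.3 (TMM scaling, likelihood-ratio test at dispersion 0, Benjamini-Hochberg adjustment) on genes with at least 1 CPM in at least 2 libraries. The test was tried on counts of 13518 genes simulated with counting noise only (Poisson), which is what it assumes. There it called 84 of 100 genes that differed 1.5-fold in 1 library, 88 of 100 that differed 2-fold, and 7 unchanged genes. Changes as small as those called among the members, and noise beyond counting, were not simulated. Alternatives used DESeq2 1.42.0 size factors, other filters, lengths and libraries. Levels and exact permutation tests used Python 3.11.15, scipy 1.17.1 and pandas 2.3.3.

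Members and lists were chosen with earlier results of these data known. All members could be named, with the fixed pairs and, of each list, the 3 highest genes and those that varied. Single copies were chosen after their values were seen. Protein sequences were not used here.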

Additional observations from a re-analysis of the deposited data

How the results depend on the processing

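Adding the reads under copies was chosen after seeing the data. No paired analysis was possible because only 1 group of samples was measured. The count of varying members, 9, was 8 with unscaled totals (13.6% of all genes in that fit, against 13.7%), 6 without a filter on low counts (7.28%), 9 with DESeq2 size factors (13.8%) or a minimum of 10 CPM (19.8%), and 3 to 5 with 1 library left out (5.61 to 9.03%), where fewer libraries enter the test. Without the filter Hnrnpa3, Srsf1 and Srsf4 were lost. The share of counts in the members, 0.871%, was 0.943% of a total without mitochondrial, Rn18s and ribosomal protein genes and 1.19% with copies added. The mean of both family differences kept its sign under every alternative run, although among members with under 5% shared words the median difference was positive in replicate 2. Among the pair ratios, log2 values reversed by reads alone for Srsf1 to Hnrnpa1 (0.53), Srsf2 to Srsf1 (-0.0245) and Hnrnpul1 to Hnrnpul2 (0.15), the last also per longest transcript (0.58), and with copies added for Srsf3 to Srsf7 (0.0758), Srsf5 to Srsf6 (0.24) and Hnrnpa2b1 to Hnrnpa1 (-1.80). By reads alone other log2 ratios moved by over 1.5 times in fold with the same sign: Srsf3 to Srsf7 (-0.22), Srsf10 to Srsf12 (6.85), Hnrnpl to Hnrnpll (2.83), Hnrnpa2b1 to Hnrnpa1 (1.51), Hnrnpa3 to Hnrnpa1 (-1.03), Hnrnpd to Hnrnpdl (-0.999), Hnrnph1 to Hnrnpf (-0.61) and Hnrnpr to Hnrnpk (-1.03). Those changes follow from the lengths used or the reads added. Depth limits Srsf12, at 14 to 17 reads. A p of 0.25, the smallest 3 libraries allow, says nothing about stability.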
